A study of Mus musculus with 10 samples.

Results

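Mitochondria carry their own ribosome, which translates the few proteins encoded by mitochondrial DNA. These proteins are core subunits of the respiratory chain and of ATP synthase. All protein components of the mitochondrial ribosome are encoded in the nucleus and imported, so their messenger RNAs appear in the polyadenylated RNA of the cell. The genes examined here are the rows of the deposited count table whose symbol begins with Mrpl or Mrps followed by a digit, pseudogenes left out. They numbered 78 of 24544 genes, namely 49 Mrpl genes, named for the large subunit, and 29 Mrps genes, named for the small subunit. All 78 passed the filter on low counts. The symbols predate the structures of the ribosome, so the name does not always give the place: the products of Mrps18a and Mrps30 sit in the large subunit, and that of Mrps36 is now assigned to the 2-oxoglutarate dehydrogenase complex.

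The study sorted long-term hematopoietic stem cells, a rare population of the bone marrow from which blood is renewed for life, and compared cells with and without neogenin-1 (NEO1), a surface receptor, which the series title links to myeloid-biased and balanced output. Mice aged 2 to 3 months carried the Hoxb5-mCherry reporter, in which a red fluorescent protein marks cells that express Hoxb5. The gate shared by both groups took cells that were lineage-negative (Lin-), Hoxb5+, cKIT+, SCA1+ and CD150+ as well as CD34-, CD48- and FLK2-. From it came 5 libraries of NEO1+ and 5 of NEO1- cells. A library held the RNA of 250 to 500 cells, with 2 mice pooled, and was made by Smart-seq2, a full-length cDNA method primed on poly(A). The sources used here do not say whether a NEO1+ and a NEO1- library came from the same mice. Hematopoietic stem cells are known for low mitochondrial activity and low protein synthesis at rest. The labels used here do not give the sex of the mice.

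Library totals were 32.1 ± 7.29 M counts in NEO1+ and 30.6 ± 3.92 M in NEO1- (mean ± SD, n = 5 each). Values are CPM, that is counts per M counts of a library, on library sizes scaled by TMM (trimmed mean of M-values). Neo1 itself ran from 12.5 to 64.8 CPM in NEO1+ and from 4.56 to 18.9 CPM in NEO1-, and the lowest NEO1+ value, in library 4, lay inside the NEO1- range. The 10 stem cell markers were all detected, with summed levels of 2507 ± 132 CPM in NEO1+ against 2471 ± 158 CPM in NEO1-. Markers of other blood cells were not absent: those of granulocytes and monocytes summed to between 492 and 3076 CPM in NEO1+ and between 380 and 3060 CPM in NEO1-, with none of the 10 at 0 throughout. The genes behind these sums were uneven. Lyz2 and Prtn3 were found in every library. In NEO1- library 1 they stood at 234 and 145 CPM of the 380, while Mpo and Elane were at 0. Mpo was also at 0 in NEO1- library 2, at 1590 CPM in NEO1- library 3 and between 3.15 and 724 CPM in NEO1+. Mean levels of Mpo, Elane, Ctsg and Prtn3 were lower in NEO1+ than in NEO1-. Those of S100a8, S100a9, Lyz2, Ly6g and Itgam were higher, and Csf1r was at 0.80 and 0.81 CPM. S100a8 averaged 145 CPM in NEO1+ against 26.0 CPM in NEO1-, and S100a9 203 against 32.0 CPM. In NEO1+ libraries 1 and 3, S100a9 reached 351 and 609 CPM. The 11 erythroid markers summed to 38.4 to 392 CPM and 28.9 to 235 CPM, with Hba-a2, Hbb-bs, Hbb-bt and Hbb-b1 at 0 in all libraries. The 8 markers of stroma and endothelium summed to 49.5 to 103 CPM and 2.68 to 60.1 CPM, with Cdh5 and Lepr at 0. Of their mean sums of 66.4 CPM in NEO1+ and 35.7 CPM in NEO1-, Pecam1 alone made up 36.3 and 19.4 CPM. The part of these cells in the results below was not tested.

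The promoters of 5 members are shown because their genes span what was found: Mrps6 and Mrps17 had the smallest p-values of the small subunit, Mrpl12 and Mrpl17 carry a match to the NRF1 motif, and Mrps22 carries a match to the ETS motif. They were chosen after the values were seen. Each run is read 5′ to 3′ in the sense of its gene, ends just before the earlier of the RefSeq and GENCODE M21 starts, and comes from RefSeq on build GRCm38.p6. Capitals mark a match to the NRF1 or the ETS motif, and Mrps6 and Mrps17 hold no match to either motif in the run shown. Mrps17 does hold TATAAA, another motif searched below, which is left in lower case. Mrpl3 and Mrpl52, which had the smallest p-values of the large subunit, are not shown. Each holds an ETS match in the window searched, which is described below. Mrps6 is at chr16:92058086-92058269 on the plus strand, Mrps17 at chr5:129715247-129715496 on the plus strand, Mrpl12 at chr11:120484387-120484612 on the plus strand, Mrpl17 at chr7:105811100-105811337 on the minus strand and Mrps22 at chr9:98601680-98601929 on the minus strand.
Mrps6: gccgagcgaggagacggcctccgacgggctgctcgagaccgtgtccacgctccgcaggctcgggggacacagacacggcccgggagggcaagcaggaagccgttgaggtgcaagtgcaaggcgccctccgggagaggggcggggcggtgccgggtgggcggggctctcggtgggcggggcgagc
Mrps17: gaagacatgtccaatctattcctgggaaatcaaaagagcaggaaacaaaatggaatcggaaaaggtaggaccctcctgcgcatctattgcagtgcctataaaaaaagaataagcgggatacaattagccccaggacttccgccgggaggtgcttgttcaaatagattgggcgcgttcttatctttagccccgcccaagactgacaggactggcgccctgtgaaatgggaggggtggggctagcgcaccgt
Mrpl12: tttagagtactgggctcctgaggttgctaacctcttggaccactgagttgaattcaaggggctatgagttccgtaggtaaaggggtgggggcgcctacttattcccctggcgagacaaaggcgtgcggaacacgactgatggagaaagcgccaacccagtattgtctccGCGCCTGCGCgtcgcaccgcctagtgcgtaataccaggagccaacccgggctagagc
Mrpl17: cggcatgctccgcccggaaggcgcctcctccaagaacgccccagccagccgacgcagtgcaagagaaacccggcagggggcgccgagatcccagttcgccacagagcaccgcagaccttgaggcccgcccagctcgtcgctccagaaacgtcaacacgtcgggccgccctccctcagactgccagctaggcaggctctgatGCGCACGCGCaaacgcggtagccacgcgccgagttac
Mrps22: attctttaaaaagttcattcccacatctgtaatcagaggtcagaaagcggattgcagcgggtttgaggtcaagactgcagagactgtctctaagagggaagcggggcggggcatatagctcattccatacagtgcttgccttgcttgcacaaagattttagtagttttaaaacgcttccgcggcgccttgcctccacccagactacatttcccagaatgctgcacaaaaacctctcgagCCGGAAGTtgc

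Of the 78 members, 69 matched a RefSeq promoter window of 300 bases (250 before the start and 50 after it), and both strands were searched. NRF1 (nuclear respiratory factor 1) and the ETS family factor GABP are textbook regulators of nuclear genes for mitochondrial proteins. The NRF1 motif, searched as GCGCA, any base and then GCGC, was in the windows of 13 of 69 members (18.8%), against 5.19% of all 27025 genes with a window. By subunit these were 10 of 43 Mrpl genes and 3 of 26 Mrps genes. The ETS motif, CCGGAAGT, was in 12 of 69 members (17.4%) against 4.31% of all genes. AAGATGGCG, a YY1 motif, was in 8 of 69 members (11.6%) against 1.64% of all genes. The E-box CACGTG did not stand out, with 5 of 69 members (7.25%) against 8.09% of all genes. The TATA motif TATAAA was likewise in 5 of 69 members, against 15.7% of all genes. Member windows were rich in CpG, with a median of 21 CpG dinucleotides over their 75 windows against 7 over all 32851 windows. Of the motifs searched, all but TATAAA hold a CpG. The background of all genes was not matched for CpG or for expression, and the part of CpG content in the motif shares was not tested. These are counts of letters in sequence windows and show no binding.

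No Mrpl or Mrps gene differed between NEO1+ and NEO1- cells past the threshold, but most lay a little lower in NEO1+. Among the large subunit genes, 41 of 49 had a lower fitted level in NEO1+ and 8 a higher one. Their median log2 fold change, NEO1+ over NEO1-, was -0.17, a median level 11.2% lower. Among the small subunit genes, 22 of 29 were lower and 7 higher, with a median of -0.16, or 10.6% lower. The median over all 12203 genes tested was 0.01, and 49.0% of those genes had a fold change below 0. The 7869 genes within the members' range of mean CPM had the same rounded median, 0.01, and 49.4% below 0. In bulk samples such as these, fewer cells that express a gene and less RNA per cell cannot be told apart.

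By the quasi-likelihood test of edgeR with Benjamini-Hochberg adjustment, 0 of 49 Mrpl genes and 0 of 29 Mrps genes had an adjusted p under 0.05, beside 0.0% of all genes tested (0 of 12203). DESeq2 likewise called 0 members, beside 1.0% of its genes (146 of 14606). At an unadjusted p under 0.05 in edgeR, 2 Mrpl and 2 Mrps genes were lower in NEO1+ and none was higher, beside 3.49% of all genes lower and 3.11% higher. The 2 of 49 Mrpl genes are a share near the background, and the 2 of 29 Mrps genes are 1 gene above what that share would give in 29, so neither count sets the members apart. The smallest adjusted p of edgeR was 0.705 among the Mrpl genes and 0.548 among the Mrps genes. The differences were small beside their errors, with a median standard error of 0.23 on the log2 scale for the Mrpl genes and 0.24 for the Mrps genes. All NEO1+ libraries lay below all NEO1- libraries for 1 Mrpl gene (Mrpl52) and 1 Mrps gene (Mrps6), beside 1.13% of all genes tested, and no member showed the opposite separation, beside 1.35%.

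**Figure D1:**
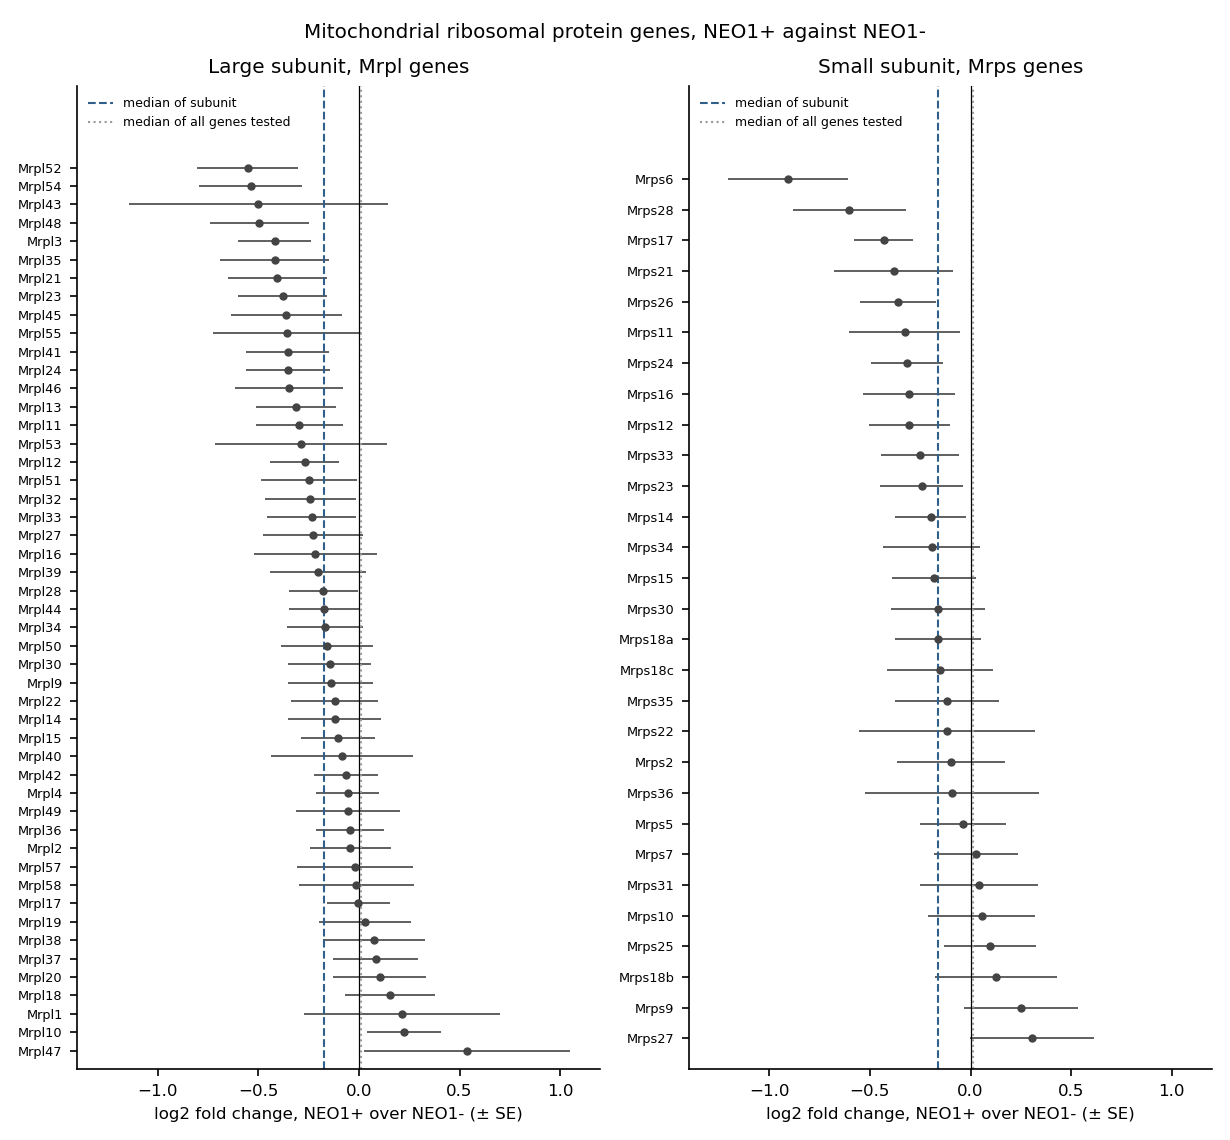
Log2 fold change (NEO1+ over NEO1-) of each member on the x axis, with large subunit genes on the left and small subunit genes on the right. Points are edgeR estimates, bars are ± 1 SE, the dashed line is the median of the subunit (-0.17 and -0.16) and the dotted line the median of all genes tested (0.01); most points lie left of 0 and many bars cross it.

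The shift was spread over the members rather than carried by a few genes. The middle 50% of the Mrpl genes lay between -0.35 and -0.04 on the log2 scale, with extremes of -0.55 (Mrpl52) and 0.54 (Mrpl47). For the Mrps genes the quartiles were -0.31 and -0.04, and the extremes -0.91 (Mrps6) and 0.30 (Mrps27). Only Mrps6 and Mrps28 differed by more than 1.5-fold in the fit; Mrps28 is named after its value was seen (17.0 ± 3.84 CPM in NEO1+, 25.8 ± 4.86 CPM in NEO1-, log2 fold change -0.60, SE 0.28, edgeR adjusted p = 0.750). Mitochondrial ribosomes descend from bacterial ones and have gained further proteins, and the members were also read by that origin. The 46 members with a bacterial counterpart had a median of -0.18, with 37 lower. The 29 proteins specific to mitochondrial ribosomes had a median of -0.17, with 23 lower; Mrps18b, which is related to bacterial S18 but has a place of its own, is counted among them. The other 3 members, Mrps18a, Mrps30 and Mrps36, were placed in neither class.

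Taken library by library, the subunits showed less uniform differences. The mean log2 CPM over the 49 Mrpl genes was 5.12, 5.19, 5.22, 5.22 and 5.21 in NEO1+ libraries 1 to 5 and 5.36, 5.39, 5.35, 5.39 and 5.14 in NEO1- libraries 1 to 5. Of the NEO1- libraries, 4 lay above every NEO1+ library, and library 5 lay among the NEO1+ values, so the groups overlapped. The mean over the 29 Mrps genes was 5.05, 5.06, 5.03, 5.15 and 5.05 in NEO1+ and 5.33, 5.29, 5.23, 5.15 and 5.11 in NEO1-. Here NEO1- library 5 lay below NEO1+ library 4, and NEO1- library 4 was level with it to 2 decimals. The group means differed by -0.13 for Mrpl (5.19 ± 0.04 in NEO1+ against 5.33 ± 0.10 in NEO1-) and by -0.16 for Mrps (5.07 ± 0.05 against 5.22 ± 0.09).

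Summed over all 78 genes, the level was 2985, 3155, 3051, 3229 and 3123 CPM in the NEO1+ libraries and 3762, 3676, 3523, 3396 and 3125 CPM in the NEO1- libraries. The NEO1+ libraries lay close together and the NEO1- libraries were spread over a wider range, whose lowest value lay inside the range of NEO1+. The group values were 3109 ± 94.1 CPM and 3497 ± 251 CPM. The ratio of the subunits overlapped between the groups: summed Mrpl CPM over summed Mrps CPM ran from 1.74 to 1.89 in NEO1+ and from 1.68 to 1.86 in NEO1-. The members together held between 0.293% and 0.362% of the raw counts of a library.

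The higher levels in NEO1- came from some of its libraries more than from others. NEO1- library 1 held the highest of the 10 values for 15 Mrpl and 12 Mrps genes, but also the lowest for 6 and 4. NEO1- library 2 held the highest for 10 Mrpl and 4 Mrps genes and the lowest for 5 and 3. NEO1- library 3 held the highest for 10 Mrpl and 6 Mrps genes and the lowest for 7 and 4. NEO1- library 4 held the highest for 5 Mrpl and 0 Mrps genes and the lowest for 4 and 1. NEO1- library 5 held the highest for 2 Mrpl and 0 Mrps genes and the lowest for 8 and 3. Without NEO1- library 1 the Mrpl median moved to -0.11 and the Mrps median to -0.13. Without NEO1+ library 4, whose Neo1 level lay within the NEO1- range, the medians were -0.16 and -0.13. Spread within the groups was larger in NEO1- for 63 of 78 members (39 Mrpl and 24 Mrps), which is near the background of 78.2% of all genes tested. The median coefficient of variation of the members was 17.3% in NEO1+ and 25.2% in NEO1-.

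Genes of the cytosolic ribosome lay lower in NEO1+ as well. Of its 78 protein genes that were tested, 73 were lower in NEO1+ (median log2 fold change -0.35), and 55 had an unadjusted p under 0.05, although none passed adjustment in edgeR. Their mean log2 CPM was 7.58 ± 0.10 in NEO1+ and 7.88 ± 0.20 in NEO1-. Cell cycle genes lay the other way, where 40 of 42 S phase genes were higher in NEO1+ (median 0.79) and 48 of 52 G2/M genes higher (median 1.18). None of these passed adjustment in edgeR either, with smallest adjusted p-values of 0.248 and 0.155. The lowest NEO1+ library exceeded the highest NEO1- library in mean log2 CPM of the S phase genes (4.91 against 4.64) and of the G2/M genes (4.24 against 3.71). The share of counts taken by the ribosomal RNA precursor Rn45s was 32.3% ± 3.89 in NEO1+ and 38.4% ± 5.01 in NEO1-, and 13146 ± 391 against 12142 ± 680 genes were detected (SD, n = 5). The part of these differences in the mitochondrial ribosome values was not tested. Leaving Rn45s out of the table kept the medians at -0.17 and -0.16. TMM trims extreme genes and rescales the libraries, so dropping a single gene could hardly move them, and this does not decide the part of Rn45s.

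**Figure D2:**
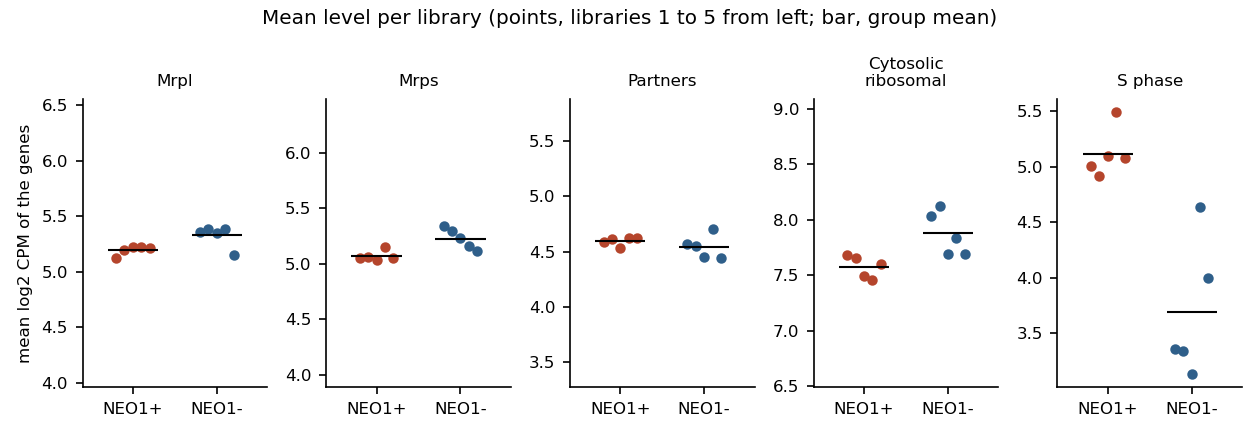
Mean log2 CPM per library (y axis) over the Mrpl genes, the Mrps genes, their 58 partner genes, the cytosolic ribosomal protein genes and the S phase genes, with NEO1+ and NEO1- on the x axis. Points are libraries and bars group means, and every y axis spans the same number of log2 units; NEO1- library 5 lies among the NEO1+ points for Mrpl, while S phase genes separate the groups.

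In the small subunit, Mrps6 showed the largest difference. Its product is the counterpart of bacterial S6, a protein of the platform of the small subunit. The gene lies at chr16:92058270-92112227 (GRCm38, plus strand). Mrps6 was at 14.4, 17.1, 15.0, 21.7 and 19.1 CPM in NEO1+ libraries 1 to 5 and at 52.7, 37.1, 22.2, 23.9 and 27.8 CPM in NEO1- libraries 1 to 5. Every NEO1- library lay above every NEO1+ library, NEO1- library 3 only just, and NEO1- library 1 was far above the rest. The means were 17.5 ± 3.04 CPM and 32.7 ± 12.5 CPM (n = 5 each). The fitted log2 fold change was -0.91 (SE 0.30, unadjusted p = 0.00927, edgeR adjusted p = 0.548). Without NEO1- library 1 it was -0.67. In the gene models, 305 exon bases of Mrps6 are shared with Gm49711 on the same strand, so reads there could have been split or left uncounted.

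Mrps17, the counterpart of bacterial S17, which binds ribosomal RNA in the body of the small subunit, had the second smallest p-value of its subunit (chr5:129715497-129722556, plus strand). It was at 72.8, 81.9, 61.9, 72.6 and 71.2 CPM in NEO1+ and at 112, 98.5, 110, 79.9 and 85.3 CPM in NEO1-. The groups overlapped only where NEO1+ library 2 exceeded NEO1- library 4. The means were 72.1 ± 7.07 and 97.2 ± 14.5 CPM, with a log2 fold change of -0.43 (SE 0.15, unadjusted p = 0.0116, edgeR adjusted p = 0.553).

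Mrps12, Mrps16, Mrps22 and Mrps14 had no unadjusted p under 0.05. Mrps12, whose product lines the decoding site, was at 37.9 ± 5.02 CPM in NEO1+ against 46.8 ± 9.06 CPM in NEO1- (log2 fold change -0.30, SE 0.20, edgeR adjusted p = 0.892). In NEO1+ 4 of its libraries stood between 35.4 and 36.0 CPM and library 4 at 46.9 CPM. Mrps16, which in people with inherited defects of mitochondrial translation can carry mutations, was at 35.5 ± 7.18 and 43.9 ± 11.1 CPM (-0.31, SE 0.23, edgeR adjusted p = 0.912). Mrps22, linked to the same class of disease, was at 15.5 ± 8.06 and 16.8 ± 4.43 CPM (-0.12, SE 0.44), and its NEO1+ libraries ran from 4.53 CPM in library 5 to 26.4 CPM in library 1. Mrps14, with the highest mean CPM of its subunit, was at 83.9 ± 16.4 and 96.3 ± 17.8 CPM (-0.20, SE 0.18).

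The 7 small subunit genes that were higher in NEO1+ included none with an unadjusted p under 0.05. Mrps27, a pentatricopeptide repeat protein of the small subunit, was at 27.9, 22.0, 16.5, 25.7 and 31.9 CPM in NEO1+ against 15.7, 13.6, 16.7, 26.5 and 27.9 CPM in NEO1-. The groups overlapped over most of their range, and the log2 fold change was 0.30 (SE 0.31, edgeR adjusted p = 0.967). Mrps9, the counterpart of bacterial S9, was at 38.1 ± 7.37 and 32.0 ± 12.8 CPM (0.25, SE 0.28, edgeR adjusted p = 0.984).

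The Mrps18 genes are 3 descendants of one bacterial protein, S18, whose products occupy different places in the ribosome. Mrps18a, in the large subunit, was at 39.4 ± 4.82 CPM in NEO1+ against 44.1 ± 11.1 CPM in NEO1- (-0.16, SE 0.21). Mrps18b was at 23.8 ± 5.24 and 21.8 ± 6.95 CPM (0.13, SE 0.30), and Mrps18c at 20.9 ± 1.88 and 23.2 ± 5.69 CPM (-0.15, SE 0.26). All 3 differences were smaller than their SE, and the signs of Mrps18b and Mrps18c turned without NEO1- library 1 (-0.018 and 0.011). Mrps30, the other member of this name in the large subunit, was at 61.8 ± 14.5 and 69.2 ± 22.6 CPM (-0.16, SE 0.23; 0.051 without NEO1- library 3). Mrps36, the member outside the ribosome, was at 9.94 ± 1.76 and 10.6 ± 2.67 CPM (-0.09, SE 0.43; 0.060 without NEO1- library 1).

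In the large subunit, Mrpl3 and Mrpl52 had the smallest p-values. Mrpl3 is the counterpart of bacterial L3, which reaches towards the peptidyl transferase centre where peptide bonds are made (chr9:105053239-105079888, plus strand). It was at 56.2, 56.2, 54.1, 49.1 and 49.9 CPM in NEO1+ against 86.1, 84.0, 49.2, 61.6 and 74.1 CPM in NEO1-. NEO1- library 3 lay within the tight NEO1+ range and the other four lay above it. The means were 53.1 ± 3.39 and 71.0 ± 15.6 CPM, with a log2 fold change of -0.42 (SE 0.18, unadjusted p = 0.0360, edgeR adjusted p = 0.705). Mrpl52 is a protein that mitochondrial ribosomes have and bacterial ones lack (chr14:54426909-54429756, plus strand). It was at 21.9, 22.5, 17.1, 15.2 and 22.2 CPM in NEO1+ against 35.1, 32.4, 27.6, 26.1 and 24.0 CPM in NEO1-. The groups did not overlap, although NEO1- library 5 was close to the top of NEO1+. The means were 19.8 ± 3.37 and 29.1 ± 4.6 CPM, with a log2 fold change of -0.55 (SE 0.25, unadjusted p = 0.0453, edgeR adjusted p = 0.745). The count of 2 Mrpl genes under an unadjusted edgeR p of 0.05 depended on single libraries. It became 0 without NEO1- library 1, NEO1- library 2, NEO1+ library 3 or NEO1+ library 4. It became 1 without NEO1- library 4, NEO1+ library 1 or NEO1+ library 5, and 4 without NEO1- library 3 or NEO1- library 5. The share of all genes in each of these fits was not taken, so these counts have no background beside them.

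**Figure D3:**
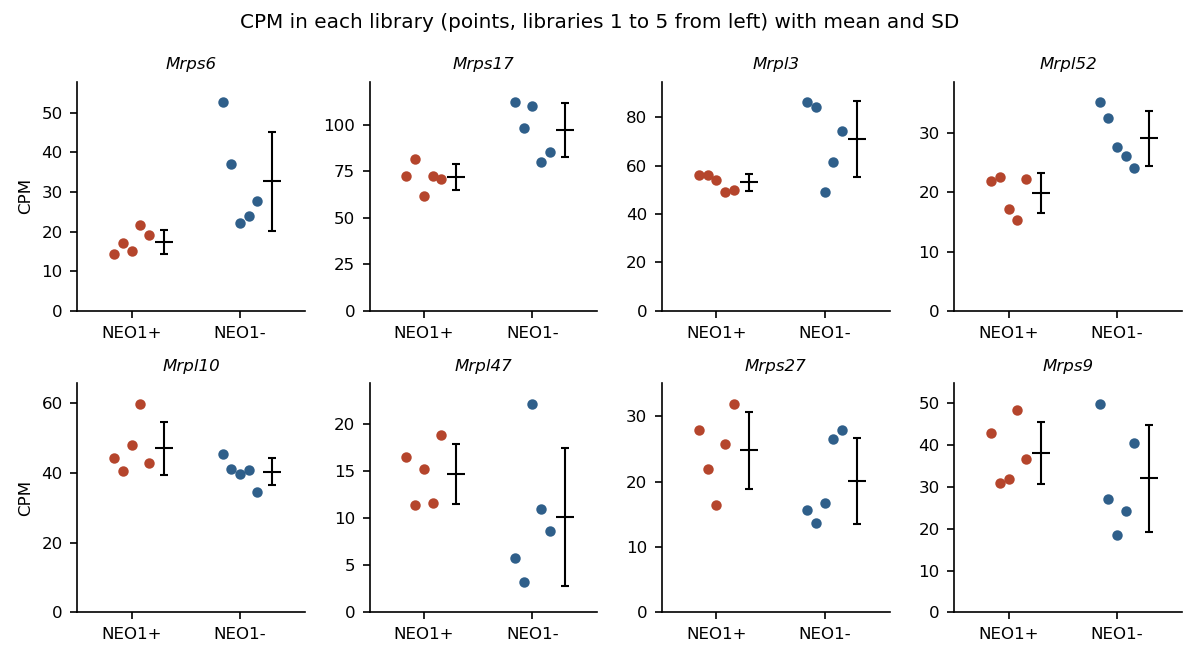
CPM (y axis, from 0) of 8 members in each library of NEO1+ and NEO1- (x axis): the 4 with an unadjusted p under 0.05 in the upper row, all lower in NEO1+, and the 4 chosen for the opposite direction in the lower row. Points are libraries 1 to 5 from the left, and the cross bars give mean and SD; the groups do not overlap for Mrps6 and Mrpl52 and overlap for the other 6.

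Mrpl12 and Mrpl10 belong to the stalk of the large subunit, which recruits translation factors, and lay on opposite sides of 0. Mrpl12, the repeated component, was at 75.1, 72.8, 64.3, 67.0 and 61.1 CPM in NEO1+ against 107, 92.4, 72.4, 78.7 and 59.3 CPM in NEO1-. NEO1- libraries 1, 2 and 4 lay above NEO1+, and NEO1- library 5 was the lowest of all 10 (log2 fold change -0.27, SE 0.17, edgeR adjusted p = 0.887). Mrpl10, which anchors Mrpl12 to the ribosome, lay the other way, at 44.4, 40.5, 48.0, 59.9 and 42.8 CPM in NEO1+ against 45.6, 41.1, 39.7, 40.9 and 34.6 CPM in NEO1-. The groups overlapped, and NEO1+ library 4 was the highest (0.22, SE 0.18, edgeR adjusted p = 0.935). In the gene models 240 exon bases of Mrpl10 are shared with Gm11574, and 200 of Mrpl12 with Gm16755, both on the opposite strand.

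Mrpl47, the counterpart of bacterial L29 near the exit of the peptide tunnel, had the largest difference towards NEO1+ (chr3:32725397-32737605, minus strand). It was at 16.5, 11.4, 15.2, 11.7 and 18.8 CPM in NEO1+ against 5.76, 3.18, 22.2, 10.9 and 8.63 CPM in NEO1-. NEO1- library 3 was the highest of all 10 and the other four NEO1- libraries lay below every NEO1+ library. The log2 fold change was 0.54 (SE 0.51, edgeR adjusted p = 0.957) and 1.04 without NEO1- library 3. Mrpl47 shares 452 exon bases with Actl6a on the opposite strand.

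The other large subunit genes named by level or role had no unadjusted p under 0.05. Mrpl4, with the highest mean CPM of the subunit, was at 88.1 ± 11.5 CPM in NEO1+ against 91.7 ± 15.7 CPM in NEO1- (-0.06, SE 0.16). Mrpl17 was level between the groups, at 76.2 ± 6.83 and 76.4 ± 13.2 CPM. Mrpl44, which has a fold like that of RNase III, was at 57.8 ± 3.39 and 65.1 ± 14.4 CPM (-0.17, SE 0.18, edgeR adjusted p = 0.972). Mrpl43, among the lowest in CPM, was at 6.5 ± 2.01 and 9.20 ± 4.96 CPM (-0.50, SE 0.64), with NEO1- library 1 at 1.66 CPM, and 385 of its exon bases are shared with Twnk on the opposite strand. CPM is not scaled to transcript length, so these levels are not compared between genes.

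Other proteins complete or serve the mitochondrial ribosome. Of 58 partner genes, 32 were lower and 26 higher in NEO1+ (median log2 fold change -0.04), and their difference from the members was not tested. In edgeR 0 passed adjustment, beside 0.0% of all genes tested. At an unadjusted p under 0.05 in edgeR, 1 was lower and 2 were higher. Beside these stand 3.49% of all genes tested lower and 3.11% higher, so neither count sets the partners apart. Their mean log2 CPM was 4.59 ± 0.04 in NEO1+ and 4.54 ± 0.10 in NEO1-.

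Of the ribosomal proteins without an Mrp symbol, 5 of 5 were lower, with a median of -0.32. Chchd1, a small subunit protein, was at 19.1 ± 1.5 CPM in NEO1+ against 25.5 ± 3.97 CPM in NEO1- with no overlap of the groups (-0.42, SE 0.25, edgeR adjusted p = 0.855). Gadd45gip1, a large subunit protein at the peptide exit, was at 54.5 ± 8.10 and 70.1 ± 16.2 CPM (-0.36, SE 0.19, edgeR adjusted p = 0.819). Dap3, a GTP-binding protein of the small subunit, was at 74.7 ± 3.82 and 93.1 ± 34.1 CPM (-0.32, SE 0.22, edgeR adjusted p = 0.898). Its NEO1- libraries ran from 60.8 to 144 CPM, on both sides of the NEO1+ range of 69.6 to 78.4 CPM. Leaving out single libraries moved the Dap3 value between -0.44 and -0.10. Aurkaip1 (-0.06, SE 0.15) and Ptcd3 (-0.08, SE 0.26), named to complete the list, differed by less than their SE.

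Translation factors were divided, with 6 of 15 lower, 9 higher and a median of 0.07. Gfm1, the elongation factor that moves the ribosome along the message, was at 20.5 ± 6.34 CPM in NEO1+ against 11.3 ± 4.13 CPM in NEO1- (0.85, SE 0.37, unadjusted p = 0.0392, edgeR adjusted p = 0.721). Gfm2, which acts in ribosome recycling, was at 24.9 ± 6.76 and 18.0 ± 6.04 CPM (0.47, SE 0.33). The recycling factor Mrrf was at 26.0 ± 7.01 and 33.5 ± 6.95 CPM (-0.36, SE 0.26). The elongation factor Guf1 was at 59.3 ± 10.5 and 70.2 ± 8.76 CPM (-0.24, SE 0.17), and Tufm, which brings aminoacyl-tRNA to the ribosome, at 54.5 ± 3.84 and 61.1 ± 18.0 CPM (-0.17, SE 0.20). Taco1, an activator of translation of a cytochrome oxidase subunit, was low, at 4.83 ± 4.81 and 2.04 ± 2.70 CPM (1.24, SE 1.43). Without NEO1+ library 4 it was 0.43, without NEO1- library 4 it was 2.32, and voom gave 3.09 and the replicate block 2.73. None of these passed the adjusted threshold.

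Of 29 assembly and quality control genes, 17 were lower and 12 higher, with a median of -0.04. Mettl17, an assembly factor of the small subunit, was at 20.6 ± 2.98 CPM in NEO1+ against 35.7 ± 14.0 CPM in NEO1- (-0.80, SE 0.31, unadjusted p = 0.0213, edgeR adjusted p = 0.624). Afg3l2, a subunit of the inner membrane protease that matures Mrpl32, lay the other way, at 85.9 ± 8.12 and 64.4 ± 11.4 CPM (0.42, SE 0.16, unadjusted p = 0.0239, edgeR adjusted p = 0.633). Fastkd2, needed for large subunit assembly, was at 19.6 ± 2.92 and 28.8 ± 7.53 CPM (-0.56, SE 0.28), and the pseudouridine synthase Trub2 at 8.93 ± 2.67 and 15.3 ± 5.23 CPM (-0.78, SE 0.42). The GTPase Gtpbp10 was at 16.6 ± 7.42 and 10.7 ± 2.89 CPM (0.63, SE 0.43), and the helicase Dhx30 at 72.5 ± 13.7 and 57.5 ± 23.7 CPM (0.33, SE 0.26). Factors of the same assembly pathway thus lay on both sides of 0.

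Of 9 genes for mitochondrial transcription and DNA maintenance, 4 were lower and 5 higher, with a median of 0.09. Ssbp1, which coats single-stranded mitochondrial DNA, was at 55.5 ± 4.76 CPM in NEO1+ against 75.4 ± 22.3 CPM in NEO1- (-0.44, SE 0.21, edgeR adjusted p = 0.757), and Tfam, which packages mitochondrial DNA, at 81.6 ± 20.4 and 98.2 ± 23.3 CPM (-0.27, SE 0.21). The elongation factor Tefm was at 24.1 ± 4.68 and 31.4 ± 11.4 CPM (-0.38, SE 0.28). The initiation factor Tfb2m was at 25.9 ± 3.62 and 16.8 ± 7.87 CPM (0.62, SE 0.35). The RNA polymerase Polrmt was at 33.9 ± 4.09 and 28.6 ± 15.2 CPM (0.25, SE 0.39), the DNA polymerase Polg at 28.8 ± 7.34 and 23.7 ± 12.9 CPM (0.28, SE 0.37) and the helicase Twnk at 38.2 ± 11.1 and 32.0 ± 14.2 CPM (0.26, SE 0.34). None of the 9 passed the adjusted threshold.

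Many members share a start region with another gene. In the GENCODE M21 models on GRCm38, 33 of 78 members (42.3%) had a protein-coding gene that starts within 1000 bases on the opposite strand, against 2382 of 21938 protein-coding genes (10.9%). Of the 30 whose neighbour was tested, 24 members were lower in NEO1+ and 14 of the neighbours were, beside 49.0% of all genes tested. Member and neighbour had the same direction in 16. A pair of members that are each other's neighbour is counted on both sides. Fewer of the neighbours than of the members thus lay below 0, a difference that was not tested. Members and neighbours named from here on were chosen after their values were seen.

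Mrpl46 and Mrps11, 1 gene of each subunit, are each other's neighbour on chromosome 7, with starts 412 bases apart. Mrpl46 was at 28.2 ± 7.93 CPM in NEO1+ against 36.0 ± 9.45 CPM in NEO1- (-0.35, SE 0.27), and Mrps11 at 21.2 ± 4.52 and 26.6 ± 6.43 CPM (-0.33, SE 0.28). Mrps12 and Sars2, the mitochondrial seryl-tRNA synthetase gene, start 172 bases apart and lay at -0.30 and 0.13, the latter with an SE of 0.55. Mrpl51 was at 48.8 ± 6.28 and 58.1 ± 20.5 CPM (-0.25, SE 0.24), while its neighbour Ncapd2, a condensin subunit on the G2/M list, was at 36.1 ± 11.9 and 13.7 ± 8.19 CPM (1.40, SE 0.44, unadjusted p = 0.00746, edgeR adjusted p = 0.529). Their annotated starts are 100 bases apart. Fau, a cytosolic ribosomal protein gene that starts 59 bases from Mrpl49, was at 83.8 ± 13.2 and 112 ± 21.4 CPM (-0.42, SE 0.17, edgeR adjusted p = 0.654), beside -0.05 for Mrpl49 itself. Pnpla7, a lysophospholipase gene, was at 49.2 ± 8.25 and 76.7 ± 15.4 CPM (-0.64, SE 0.19, edgeR adjusted p = 0.465), beside -0.35 for Mrpl41. Exons of 26 members overlap another gene's exons, 22 of them on the opposite strand and 18 by 100 bases or more; whether counting used strand is not given in the sources used here, and reads from such pairs cannot then be told apart.

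**Figure D4:**
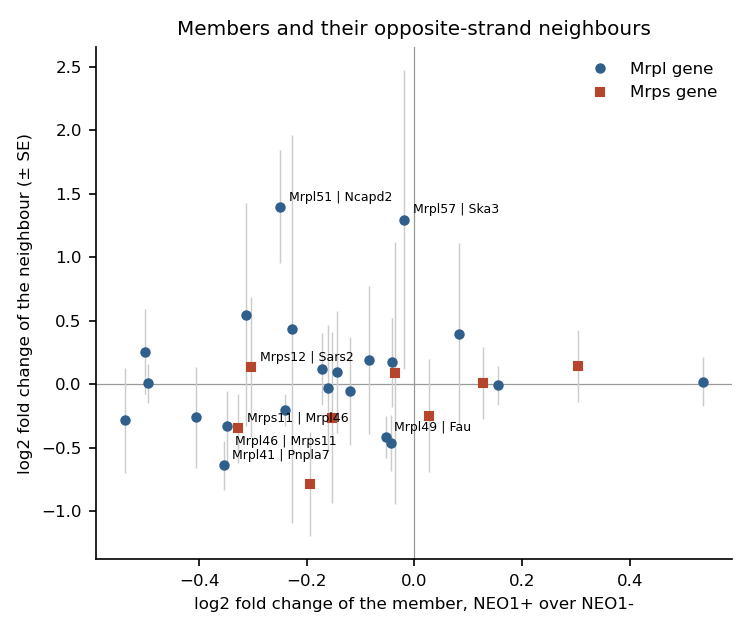
Log2 fold change (NEO1+ over NEO1-) of each member (x axis) and of the tested neighbour that starts within 1000 bases on the opposite strand (y axis, bars ± 1 SE of the neighbour), for 30 members. Circles are Mrpl and squares Mrps genes; 24 of the 30 points lie left of 0 on the x axis and 14 below 0 on the y axis.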

How the data were processed

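RNA-seq libraries of sorted mouse stem cells were compared between NEO1+ (5) and NEO1- (5). The authors deposited raw counts per gene symbol. The submitters' processing notes name bcl2fastq 2.18, STAR 2.4, DESeq2 1.22.2 and build mm10; the counter, the annotation and strand use are not given in the sources used here. Per the labels' protocols, Smart-seq2 cDNA was amplified by 18 cycles of PCR and 40 ng entered Nextera library preparation. Without molecular identifiers, PCR copies were counted as reads, and floors cover counting error only. A count of 0 allowed up to 3 counts, or 0.0699 to 0.144 CPM by library. Member counts ran from 52 to 4132 per library. The lowest chi-square per degree of freedom over 20 within-group pairs of libraries was 86.7, so no pair was alike within sampling noise. Labels do not say whether pools of mice were processed separately, so p-values measure the spread between these libraries. No batch is given.

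Counts were tested by the two-sided robust quasi-likelihood test of edgeR 4.0.16 (R 4.3.3) after filterByExpr and TMM, with Benjamini-Hochberg adjustment over 12203 genes. Adjusted p under 0.05 counted as a call. Common dispersion corresponded to a biological coefficient of variation of 0.717. SE was taken from the log2 fold change and the square root of its F statistic. CPM use TMM-scaled sizes, and log2 CPM per library a prior count of 2. The script was tested on simulated data. Alternatives were DESeq2 1.42.0, its size factors, voom (limma 3.58.1), no filter, a replicate block, no Rn45s, and leaving out each library. The authors' log2 table was not used. The members and lists were chosen with earlier results of these data known. Named members were, per subunit, those of smallest p under 0.05, the 2 of smallest p in the minority direction, the 3 highest and 2 lowest in mean CPM, and 10 for their roles; of each partner list, up to 3 of smallest p in each direction, and Dap3, Tufm, Tfam and Polrmt. Of 69 partner symbols listed, which included synonyms, 58 were in the table and tested. All 78 members matched GENCODE M21 models. Lymphoid markers are not reported here.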

Additional observations from a re-analysis of the deposited data

Results flagged for a closer look

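Of 48 sets of 5 libraries examined (22 named members and the 2 subunit means, in each group), 6 had a highest or lowest library far from the others by Dixon's criterion (0.71 for 5 samples), which chance meets in about 1 of 20 sets, or 2.4 of 48. For Mrpl17, NEO1+ library 1 stood at 6.46 log2 CPM, with 6.14 to 6.23 in the other NEO1+ libraries. Mrps12 was at 5.55 in NEO1+ library 4 and between 5.15 and 5.17 in the others. Mrpl43 was at 0.78 in NEO1- library 1 against 3.05 to 3.95, and Mrps18c at 5.05 in the same library against 4.23 to 4.45. The mean over the Mrpl genes was lowest in NEO1- library 5, at 5.14 against 5.35 to 5.39. The mean over the Mrps genes was highest in NEO1+ library 4, at 5.15 against 5.03 to 5.06.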

How the results depend on the processing

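No Mrpl, Mrps or partner gene passed the adjusted threshold in any of the 16 alternatives, and both subunit medians stayed below 0, from -0.20 to -0.11 for Mrpl and from -0.23 to -0.13 for Mrps, the extremes both from leaving out a library. The smallest adjusted p of any member was 0.137 (Mrps6, DESeq2). Under voom the median of all genes moved to 0.12, with subunit medians of -0.13 and -0.14. Blocking on the replicate number moved it to 0.10, with medians of -0.14 and -0.15. In that block, 0 Mrpl and 2 Mrps genes were lower at an unadjusted p under 0.05, and Mrpl17 turned to 0.0092. Libraries of the same number were not taken as pairs: their deviations correlated at 0.004 to 0.036, and 3 of 5 NEO1+ and 1 of 5 NEO1- libraries were most like their own number. DESeq2 found 3 Mrpl and 3 Mrps genes at that unadjusted level, all lower, and voom 1 and 2. The shares of all genes at that level under the block, DESeq2 and voom were not taken. These counts therefore have no background beside them and do not set the members apart.

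Among single genes, directions turned only for small differences, in 16 gene values (log2 fold changes), and were kept in 688. Leaving out each library in turn, Mrpl17 ranged from -0.078 to 0.088 and was above 0 without NEO1- library 2 (0.030) or 5 (0.088) or NEO1+ library 2 (0.0086), 3 (0.021), 4 (0.0016) or 5 (0.0076). Mrpl4 ranged from -0.13 to 0.013, Mrps22 from -0.40 to 0.12 and Polrmt from -0.010 to 0.53, each turning without NEO1- library 2 (Mrps22 0.027), and Mrps22 reached 0.12 without NEO1+ library 5. Mrps36 ranged from -0.19 to 0.060, Mrps18b from -0.018 to 0.25, Mrps18c from -0.22 to 0.011 and Tufm from -0.27 to 0.0052, each turning without NEO1- library 1. Mrps30 ranged from -0.28 to 0.051 and turned without NEO1- library 3. With 5 libraries a group and a median SE near 0.23, differences of the size of the subunit medians could not be called for single genes.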
